A study of Mus musculus with 6 samples.

Results

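Glutathione and antioxidant enzyme genes were followed in biliary epithelial cells, the cells that line the bile ducts of the liver. They were taken by name from the deposited table of expression values: the glutathione peroxidases, the glutathione S-transferases of the alpha, kappa, mu, omega, pi, theta and zeta classes, and 15 further genes of glutathione synthesis, peroxide and superoxide removal and their control. In all, 45 of the 21700 genes in the table matched. The study sorted these cells by flow cytometry from livers of wild-type (WT) female C57BL/6 mice, either non-pregnant (3 libraries) or pregnant at dpc8, that is 8 days after mating (3 libraries). No age, transgene or drug is given in the labels for either group, and which antibodies set the sorting gate is not stated in them. The comparison asks how RNA levels in the bile duct cells of early pregnant mice differ from those outside pregnancy.

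Glutathione is a tripeptide that donates electrons to peroxides and forms conjugates with reactive chemicals. Cells make it from glutamate, cysteine and glycine, use it through peroxidases and transferases, and restore its reduced form with glutathione reductase. The thioredoxin system, superoxide dismutases and catalase work beside it. The transcription factor NRF2, held in the cytoplasm by KEAP1 until the cell meets oxidants or electrophiles, raises many of these genes through the antioxidant response element. Bile duct cells are exposed to bile acids and to the conjugates that hepatocytes export into bile, and glutathione itself is one of the solutes of bile.

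The libraries held between 25047887 and 35083751 fragments counted to genes. The markers Krt19, at 220 to 386 FPKM, and Epcam, at 182 to 195 FPKM, were present in all 6 libraries (FPKM, a level scaled to exon length and to the size of the library). The hepatocyte transcript Alb was also present, at 1973 to 2550 FPKM. The summed level of 20 hepatocyte markers was 3245, 3733 and 4007 FPKM without pregnancy, against 3182, 3035 and 2782 FPKM in pregnancy. Of 13 Kupffer cell (liver macrophage) markers 11 could be tested and 4 of them were called higher in pregnancy. The summed level of the 13 was 82.3, 91.8 and 57.7 FPKM against 193, 162 and 114 FPKM. Csf1r and Cd68, the most abundant of them, overlapped between the groups. Markers of endothelium summed to 273 FPKM in non-pregnant library 2 and to between 22.1 and 40.3 FPKM in the other libraries. Of 10 stellate cell and fibroblast markers 4 could be tested and 0 were called, and of 6 erythroid markers 0 reached the limit for testing. Of 11 lymphocyte and neutrophil markers 1 could be tested and 0 were called. The summed level of these 11 was 2.29, 1.65 and 1.80 FPKM without pregnancy, against 4.43, 3.53 and 3.18 FPKM in pregnancy. The tested gene, Cd79a, was the largest part of each sum, at 2.04, 1.45 and 1.64 against 2.27, 2.27 and 2.60 FPKM. Rank correlations between libraries over the tested genes were 0.956 to 0.979 within the non-pregnant group, 0.991 to 0.995 within the pregnant group and 0.958 to 0.987 between the groups. Non-pregnant library 1 correlated more closely with the pregnant libraries (0.981 to 0.987) than with non-pregnant libraries 2 and 3 (0.978 and 0.979). Because whole sorted samples were measured, fewer cells of a type and less RNA per cell cannot be told apart. The labels do not say that the libraries of a group came from separate mice, so every p-value speaks of the spread between the libraries alone.

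Of the 45 genes, 43 were detected and 36 reached a mean of 1 FPKM over the 6 libraries and were tested. Gsto2, with a mean of 1.28 FPKM, stood just inside this limit and Gstp3, with 0.820 FPKM, just outside it. Levels ran over several orders of magnitude, with Gstm1 at a mean of 463 FPKM, the 32nd highest gene of the table. Cat followed at 205 FPKM and Gpx1 at 132 FPKM, and 24 of the genes had a mean of at least 10 FPKM. The spread of the levels is shown in the plot of all detected genes.

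**Figure D1:**
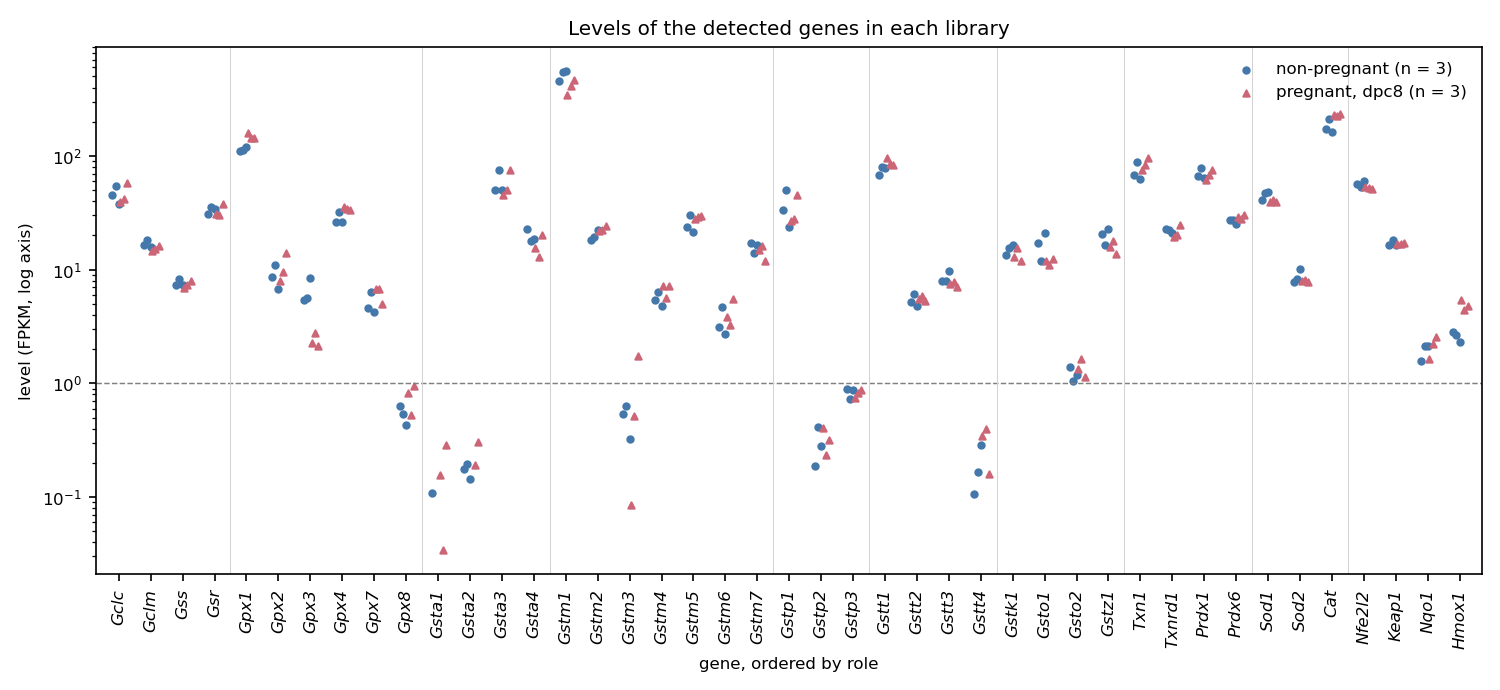
Level of each of the 43 detected genes in FPKM (vertical log axis), with 1 point per library, circles for the 3 non-pregnant and triangles for the 3 pregnant libraries. Genes are ordered by role (grey lines part the roles), the dashed line marks 1 FPKM, values of 0 are left out, Gstm1 is highest, and the groups lie apart most clearly for Gpx3 and Hmox1.

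No tested member passed the threshold between the groups. With limma on log2(FPKM + 1) and Benjamini-Hochberg adjustment over all 11412 tested genes, 0 of 36 members had an adjusted p under 0.05, against 0.0876% of all tested genes (10 genes). At an unadjusted p under 0.05 there were 8 members, 4 higher and 4 lower in pregnancy, which is 22.2% of them, against 13.4% of all tested genes. All 3 pregnant libraries lay above all 3 non-pregnant ones for 6 members (16.7%; 9.9% of all tested genes) and below them for 4 members (11.1%; 12.2% of all tested genes). The median log2 change of the tested members, pregnant minus non-pregnant, was -0.01, and that of all tested genes was -0.02. The median size of the change, whatever its sign, was 0.18 for the members and 0.11 for all tested genes. Without non-pregnant library 2, the library with the high endothelial transcripts, 3 members passed (Gpx3 and Gsto1 lower, Hmox1 higher), when 1.17% of all tested genes passed.

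The glutathione peroxidases, which reduce peroxides at the expense of glutathione, did not share a direction. For Gpx1 and Gpx4 the 3 pregnant libraries all lay above the non-pregnant ones, and for Gpx3 they all lay below. Gpx1, Gpx2, Gpx3 and Gpx4 are selenoproteins, in which a TGA codon inside the reading frame, elsewhere a stop signal, is read as selenocysteine at the active site. Gpx7 and the thioredoxin reductase gene Txnrd1 are shown with them, the first because it has a cysteine codon in the same context and the second because its TGA stands next to last before the stop. The stretches are coding sequence from GENCODE vM21 transcripts (GRCm38, the build that mm10 names), written 5′ to 3′ on the coding strand, with the codon in capitals.
Gpx1: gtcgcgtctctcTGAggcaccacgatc
Gpx2: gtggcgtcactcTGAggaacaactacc
Gpx3: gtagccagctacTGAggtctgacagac
Gpx4: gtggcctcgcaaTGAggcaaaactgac
Gpx7: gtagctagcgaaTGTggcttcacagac
Txnrd1: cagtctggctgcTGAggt
The TGA is codon 47 of 201 in Gpx1, at chr9:108339451-108339453 on the plus strand, and codon 73 of 226 in Gpx3, at chr11:54907256-54907258 on the plus strand. In the longest Gpx4 reading frame, of 253 codons, it is codon 129. In the longest Txnrd1 reading frame, of 613 codons, it is codon 612. The genes that share this codon therefore include members that were higher (Gpx1, Gpx4), a member that was lower (Gpx3) and members whose groups overlapped (Gpx2, Txnrd1).

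Gpx3 encodes the secreted peroxidase of plasma and had the lowest p of all members. It stood at 5.43, 5.64 and 8.51 FPKM in non-pregnant libraries 1 to 3 and at 2.26, 2.78 and 2.11 FPKM in pregnant libraries 1 to 3. Every pregnant library was below every non-pregnant one, and non-pregnant library 3 was the highest. The means were 6.52 ± 1.72 and 2.39 ± 0.353 FPKM (SD, n = 3 each), a ratio of 0.366. The log2 change was -1.13 with an SE of 0.160 (limma adjusted p = 0.0854), 16th of all tested genes by p. These levels rest on 282, 309 and 543 fragments outside pregnancy, against 109, 156 and 97 during it. Without non-pregnant library 2 the log2 change was -1.21 (limma adjusted p = 0.0351), and without non-pregnant library 3 it was -0.95 (limma adjusted p = 0.0725). Gpx3 (ENSMUSG00000018339) lies at chr11:54902453-54910377 (mm10), and none of its 75-base stretches occurs in another annotated transcript. The hepatocyte markers were also lower in the pregnant libraries, with 14 of 18 tested markers below 0 and 1 called lower, and their part in the Gpx3 result was not tested.

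Gpx1, the abundant cytosolic and mitochondrial peroxidase, stood at 111, 114 and 119.7 FPKM in the non-pregnant and at 159.7, 143 and 143 FPKM in the pregnant libraries. The groups did not overlap and the means differed 1.29-fold, 115 ± 4.26 against 149 ± 9.67 FPKM (SD, n = 3 each). The log2 change of 0.37 ± 0.0855 (SE) did not pass (limma adjusted p = 0.279). Gpx1 (ENSMUSG00000063856) lies at chr9:108338903-108340343. Gpx4, which reduces lipid peroxides in membranes and is known as a brake on ferroptosis, stood at 26.1, 32.0 and 26.3 FPKM against 35.9, 34.4 and 33.7 FPKM. All 3 pregnant libraries were higher, by the least against non-pregnant library 2, and the log2 change of 0.30 ± 0.0947 (SE) did not pass (limma adjusted p = 0.301). Of the 75-base stretches of Gpx4, 29.8% also occur in pseudogenes (Gpx4-ps2 and AC122253.3), so its level is uncertain in so far as reads could be assigned to either.

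The other peroxidases overlapped between the groups or were near 0. Gpx2, the peroxidase of gastrointestinal epithelium, stood at 8.68, 10.9 and 6.72 FPKM against 8.005, 9.62 and 14.04 FPKM, and pregnant library 3 was the highest. Gpx7, a peroxidase of the endoplasmic reticulum, stood at 4.63, 6.39 and 4.23 against 6.82, 6.78 and 4.996 FPKM. Gpx8, its relative in the same compartment, was below the limit for testing, with 16 to 25 fragments in any library. Gpx5 and Gpx6, known from the epididymis and the olfactory epithelium, had 0 fragments in every library. A count of 0 allows up to 3 fragments, which is at most 0.0708 FPKM for Gpx5 and 0.0866 FPKM for Gpx6 in a single library, counting error only.

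**Figure D2:**
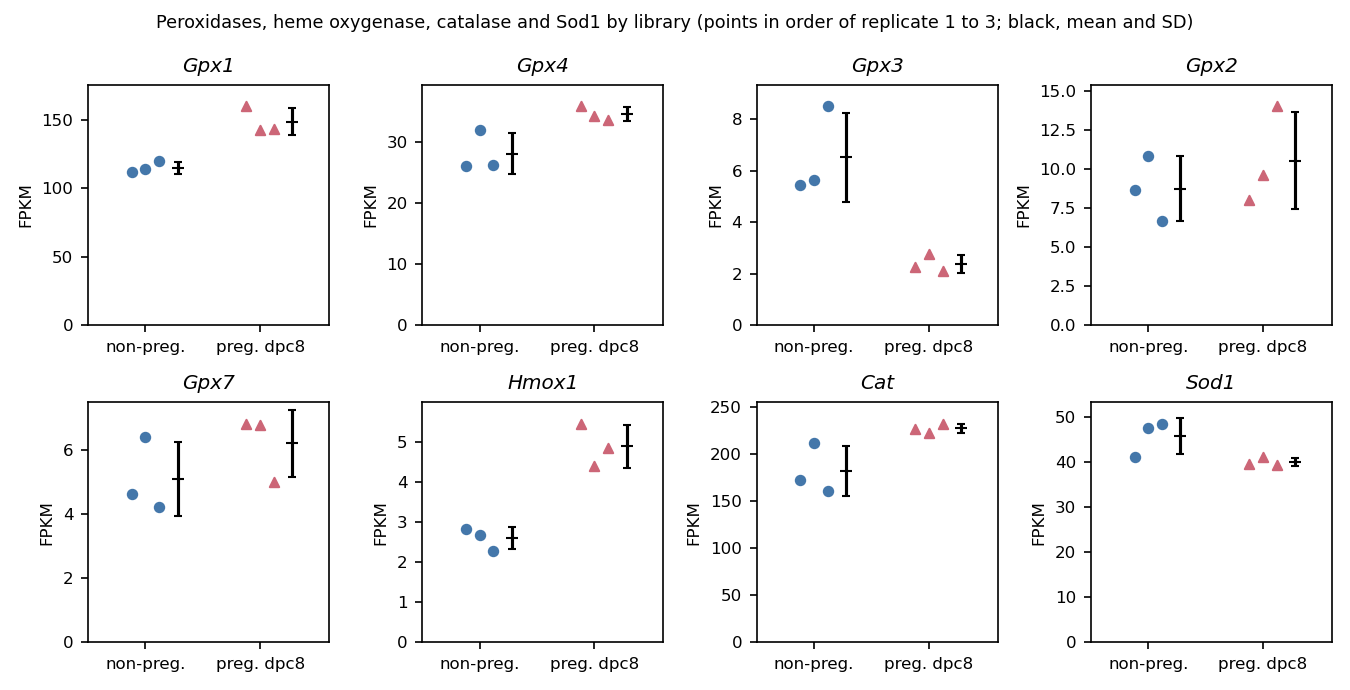
Levels in FPKM (linear axes from 0) of 5 glutathione peroxidases, Hmox1, Cat and Sod1, with 1 point per library in the order of replicates 1 to 3 and the mean and SD of each group in black. Gpx1, Gpx4, Hmox1 and Cat lie higher and Gpx3 lower in all pregnant libraries, Gpx2 and Gpx7 overlap, and the Sod1 groups nearly touch.

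Cat stood higher and Sod1 lower in all pregnant libraries, and Sod2 overlapped. Cat encodes catalase, which splits hydrogen peroxide in peroxisomes, and stood at 172, 212 and 161 FPKM in the non-pregnant and 227, 223 and 233 FPKM in the pregnant libraries. The pregnant values were close to each other and above all non-pregnant ones, with means of 182 ± 26.8 and 228 ± 4.74 FPKM (SD, n = 3 each), a ratio of 1.25. The log2 change of 0.33 ± 0.117 (SE) did not pass (limma adjusted p = 0.323). Sod1, the cytosolic copper and zinc superoxide dismutase, stood at 41.1, 47.4 and 48.4 against 39.4, 41.0 and 39.3 FPKM, a ratio of 0.874. Its lowest non-pregnant and highest pregnant values were nearly equal, and the groups overlapped once values were scaled to the summed fragments of each library. The log2 change was -0.19 (SE 0.0847, limma adjusted p = 0.387). Sod2, the mitochondrial manganese enzyme, overlapped, at 7.79 to 10.1 FPKM against 7.86 to 8.09 FPKM. Of the 75-base stretches of Sod2, 16.2% also occur in other annotated genes, so its level is uncertain.

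Genes of glutathione synthesis and recycling overlapped between the groups in every case. Gclc, the catalytic subunit of glutamate-cysteine ligase and the rate-limiting step of synthesis, stood at 45.1, 54.01 and 37.9 FPKM against 39.6, 42.2 and 58.2 FPKM. The group means, 45.6 and 46.7 FPKM, were closer than the libraries within either group. Its modifier subunit Gclm stood at 15.9 to 18.3 against 14.7 to 16.2 FPKM. Gss, which adds glycine in the second step, stood at 7.34 to 8.28 against 6.96 to 7.95 FPKM. Gsr, the reductase that restores glutathione, stood at 30.7 to 35.2 against 30.4 to 37.9 FPKM.

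Glutathione S-transferases join glutathione to electrophiles, and their transcripts were dominated by the mu class. Summed over the 22 transferase genes the level was 764, 909 and 875 FPKM in the non-pregnant and 658, 725 and 821 FPKM in the pregnant libraries. These ranges overlap. Gstm1 alone made up 59.6%, 60.5% and 63.9% of that sum outside pregnancy and 52.1%, 56.6% and 56.3% during it, so that its share was lower in all 3 pregnant libraries. This is shown in the bars of transferase transcripts by class.

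**Figure D3:**
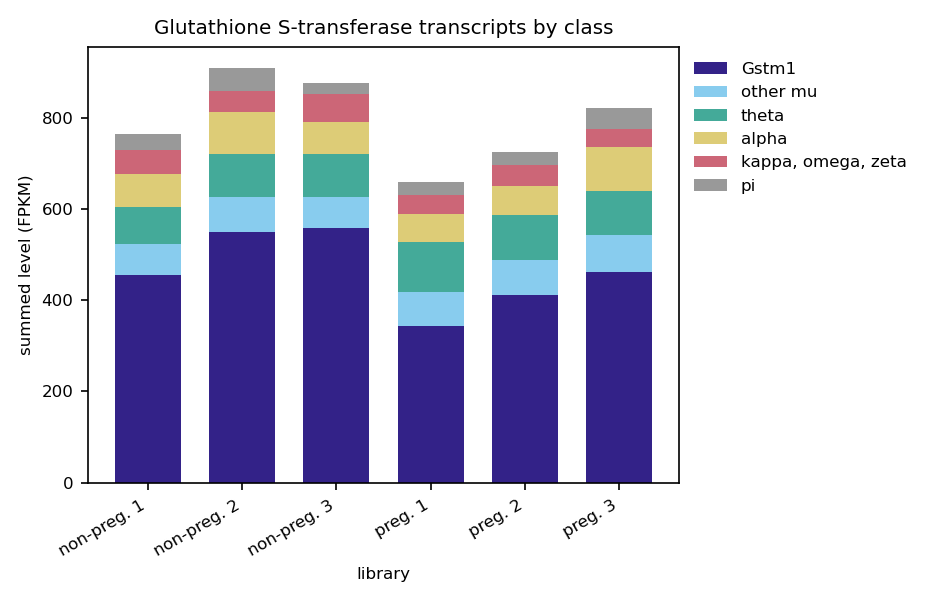
Summed level in FPKM of the 22 glutathione S-transferase genes in each of the 6 libraries (bars start at 0), divided into Gstm1, the other mu genes and the other classes. Gstm1 is the largest part of every bar, at 52.1% to 63.9%, and its part is smaller in the pregnant libraries.

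The 7 mu genes lie side by side on chr3:107895821-108044894 and the groups overlapped for each of the 6 that were tested. Gstm1 stood at 455, 550.4 and 559 FPKM in the non-pregnant and 343, 411 and 462 FPKM in the pregnant libraries. Only pregnant library 3 reached into the non-pregnant range, and the ratio of means was 0.777 (log2 change -0.37, SE 0.145; limma adjusted p = 0.354). Gstm2 stood at 18.4, 19.2 and 22.3 against 21.9, 22.4 and 24.2 FPKM, with a ratio of means of 1.14 (log2 change 0.19, SE 0.0909; limma adjusted p = 0.407). Gstm4 stood at 5.46, 6.39 and 4.81 against 7.24, 5.65 and 7.20 FPKM, with a ratio of means of 1.21 (log2 change 0.23, SE 0.123; limma adjusted p = 0.423). The groups of both genes overlapped. Gstm5, at 21.4 to 30.1 against 27.8 to 29.6 FPKM, and Gstm6, at 2.698 to 4.67 against 3.29 to 5.54 FPKM, also overlapped, as did Gstm7 at 14.1 to 17.2 against 11.9 to 16.1 FPKM. Gstm3 was below the limit for testing and ranged from 3 fragments in pregnant library 1 to 58 in pregnant library 3. Of the 75-base stretches of Gstm1 11.7%, and of Gstm3 21.6%, occur in other annotated genes, among them each other and Gstm2-ps1, so the split of reads between them is uncertain.

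Theta class genes, which lie together on chromosome 10, held a member in each direction. Gstt1 stood at 67.6, 80.1 and 78.1 FPKM in the non-pregnant and 95.2, 84.9 and 83.5 FPKM in the pregnant libraries. The groups did not overlap (ratio 1.17; log2 change 0.22, SE 0.0974; limma adjusted p = 0.378). Its neighbour Gstt3 stood at 7.90, 7.92 and 9.73 against 7.48, 7.74 and 7.08 FPKM, lower in all pregnant libraries (ratio 0.873; log2 change -0.17, SE 0.0942; limma adjusted p = 0.436). Gstt3 shares 13.6% of its exon bases with Gm20441 on the same strand, which makes its level uncertain. Gstt2 overlapped at 4.82 to 6.11 against 5.32 to 5.82 FPKM, and Gstt4 had 3 to 12 fragments.

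Alpha and pi class genes varied between libraries within both groups. Gsta3 stood at 49.8, 75.2 and 50.4 FPKM in the non-pregnant and 45.7, 50.6 and 75.6 FPKM in the pregnant libraries. Each group held 1 library well above the others, non-pregnant 2 and pregnant 3, and the groups overlapped. Gstp1 stood at 33.3, 50.1 and 23.6 against 26.6, 28.1 and 45.5 FPKM, with the same libraries highest. Gsta4, which conjugates the lipid peroxidation product 4-hydroxynonenal, stood at 22.6, 17.8 and 18.7 against 15.4, 13.01 and 20.03 FPKM (ratio 0.819; log2 change -0.29, SE 0.155; limma adjusted p = 0.431), and the groups overlapped. Gsta1, Gsta2, Gstp2 and Gstp3 had at most 28 fragments in any library. Of the 75-base stretches of Gstp1, 29.2% occur in Gstp2 or Gstp-ps, of Gstp2 50.1%, of Gsta2 36.6% and of Gsta1 84.7% in other genes, so the levels of these near copies are uncertain.

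In the smaller classes the groups overlapped for all 4 members. Of these, 3 had a log2 change below 0 and 1 above 0, where 44.8% of all tested genes were above 0. Gsto1, an omega transferase with thioltransferase activity, stood at 17.0, 11.8 and 21.1 FPKM in the non-pregnant and 12.03, 10.9 and 12.3 FPKM in the pregnant libraries. Non-pregnant library 2 fell inside the pregnant range, and the ratio of means was 0.708 (log2 change -0.43, SE 0.179; limma adjusted p = 0.362). Without that library the log2 change was -0.64 (limma adjusted p = 0.0431). Gstz1, which isomerises maleylacetoacetate in tyrosine breakdown, stood at 20.5, 16.5 and 22.8 against 15.9, 17.7 and 13.8 FPKM (ratio 0.792; log2 change -0.31, SE 0.134; limma adjusted p = 0.370), and the groups overlapped. On the opposite strand, 12.2% of its exon bases overlap other genes, chiefly Pomt2. Such overlap also holds for Gss (15.4%), Gstm5 (13.9%), Keap1 (10.9%) and Gclm (4.7%). It makes these levels uncertain in so far as counting ignored strand. Gstk1, of mitochondria and peroxisomes, stood at 13.6 to 16.4 against 11.97 to 15.4 FPKM, and Gsto2 at 1.04 to 1.38 against 1.13 to 1.63 FPKM.

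Of Txn1, Txnrd1, Prdx1 and Prdx6, the last was the one whose groups did not overlap. Prdx6, a peroxiredoxin that uses glutathione, stood at 27.3, 27.3 and 25.2 FPKM against 28.9, 28.1 and 30.2 FPKM, and was not among the members of smallest p. Txn1, which encodes thioredoxin, stood at 67.7, 88.1 and 62.3 against 75.4, 83.3 and 95.7 FPKM. Its reductase Txnrd1 stood at 21.2 to 22.8 against 19.3 to 24.5 FPKM, and Prdx1, the abundant cytosolic peroxiredoxin, at 64.1 to 78.1 against 61.5 to 75.8 FPKM.

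NRF2 and KEAP1 transcripts varied little, and of the target genes Hmox1 and Nqo1 the first did not overlap between the groups and the second did. Nfe2l2, which encodes NRF2, stood at 56.2, 53.3 and 59.7 FPKM in the non-pregnant and 53.2, 52.3 and 51.7 FPKM in the pregnant libraries. All pregnant values were lower, though pregnant library 1 and non-pregnant library 2 were nearly equal, with a ratio of means of 0.929. Keap1 stood at 16.4, 18.3 and 16.6 against 16.8, 16.9 and 17.3 FPKM, with a ratio of means of 0.995. Nqo1, a quinone reductase often used as a readout of NRF2, stood at 1.57, 2.11 and 2.14 against 1.64, 2.23 and 2.57 FPKM, and the groups overlapped.

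Hmox1 encodes heme oxygenase-1, which breaks heme down to biliverdin, iron and carbon monoxide, and had the largest positive log2 change of the tested members. It stood at 2.83, 2.68 and 2.29 FPKM in the non-pregnant and at 5.45, 4.38 and 4.83 FPKM in the pregnant libraries. The groups did not overlap, and the means of 2.60 ± 0.281 and 4.88 ± 0.535 FPKM (SD, n = 3 each) differed 1.88-fold. The log2 change was 0.71 with an SE of 0.102 (limma adjusted p = 0.0854), 18th of all tested genes by p. These levels rest on 142, 142 and 141 fragments outside pregnancy, against 254, 237 and 214 during it. Without non-pregnant library 2 the log2 change was 0.73 (limma adjusted p = 0.0402), and without pregnant library 1 it was 0.64 (limma adjusted p = 0.424). Hmox1 (ENSMUSG00000005413) lies at chr8:75093621-75100589. Hmox1 is known to be high in liver macrophages. Of the 11 tested Kupffer cell markers 9 were higher in all pregnant libraries (9.9% of all tested genes), with Clec4f at 1.07, 1.51 and 0.299 against 18.004, 14.2 and 5.90 FPKM. The groups overlapped for the remaining tested markers, Csf1r and Cd68. Csf1r stood at 34.7, 43.7 and 19.1 against 37.7, 36.4 and 29.9 FPKM. Cd68 stood at 40.3, 38.0 and 36.0 against 38.4, 37.8 and 40.5 FPKM. The 9 markers that were higher stood in the order pregnant library 1, 2, 3. Hmox1 was also highest in pregnant library 1 but lowest in pregnant library 2, and 3 libraries are too few to compare such orders. The part of the Kupffer cell markers in the Hmox1 result was not tested.

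**Figure D4:**
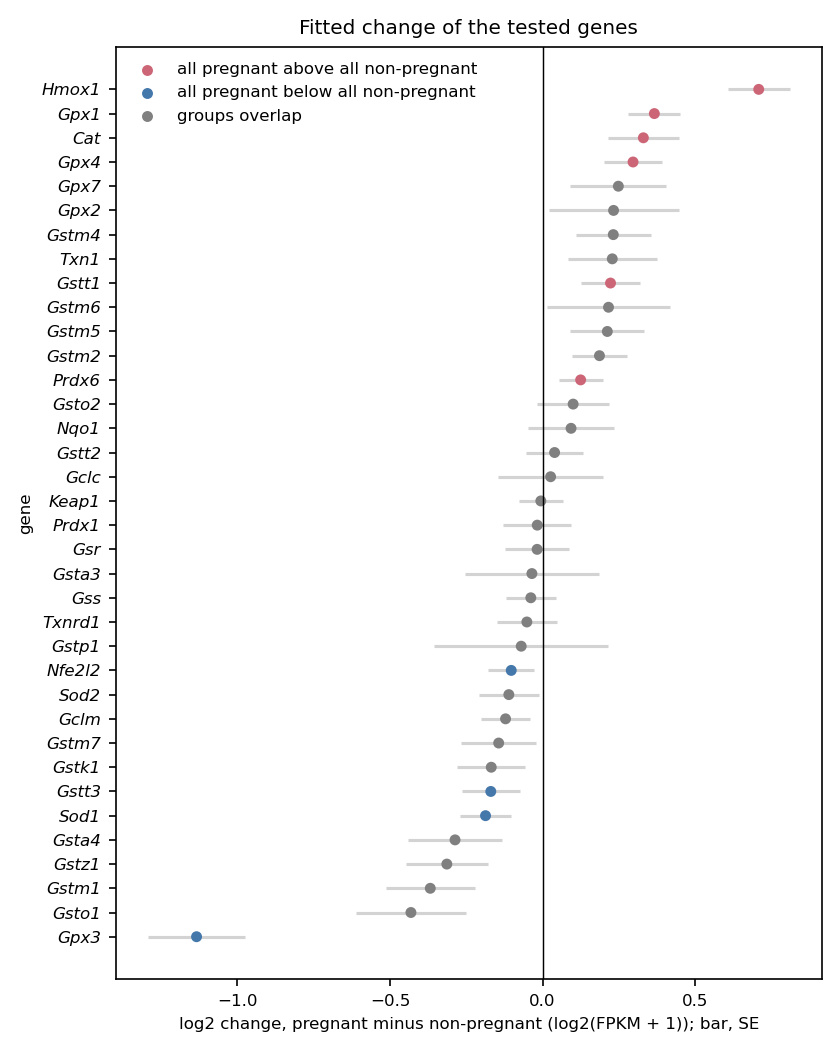
Fitted log2 change, pregnant minus non-pregnant on the log2(FPKM + 1) scale, of the 36 tested genes with its SE as a bar, and colour shows whether all 3 pregnant libraries lay above (6 genes), below (4 genes) or among the 3 non-pregnant ones. Gpx3 at -1.13 and Hmox1 at 0.71 lie farthest from 0, and no gene passed the adjusted threshold.

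The antioxidant response element was looked for in the RefSeq promoter windows (GRCm38.p6), which run from 250 bases before to 50 after a start site. Windows were found by symbol for 39 of the 45 genes, those without one being Gclc, Gsr, Hmox1, Prdx6, Gsta4 and Gstt2. The core TGACNNNGC, on either strand, was present for 8 of the 39 genes (20.5%), against 14% of the 27025 genes in the promoter table. A gene can have several windows, and counted by window the shares were closer, 15.4% of 52 against 12.4% of 32851. The matches are shown with 8 bases on either side, read 5′ to 3′ in the direction of the core, which is in capitals.
Gclm: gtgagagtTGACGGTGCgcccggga
Gsta3: ctcaggcaTGACATTGCatttttct
Gstm5: ccgcccacTGACCACGCggagggcg
Gstm7: tgaagaccTGACAAAGCgaagccaa
Nfe2l2: agcccaccTGACTCCGCcatgcccc
Prdx1: acgggggaTGACTCAGCgctttccc
Sod1: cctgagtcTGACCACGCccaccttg
Txnrd1: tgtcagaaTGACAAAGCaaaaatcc
The Prdx1 stretch is chr4:116685458-116685482 on the minus strand, and its core, at positions -133 to -125 from the start site, contains TGACTCA, which is also the AP-1 motif. The Gsta3 stretch is chr1:21240456-21240480 on the plus strand, with its core at positions -121 to -113 from the start site. The percent difference between the group means of these 8 genes ran from -12.6% for Sod1 to 15.3% for Gstm5, and Gstm5 was the only one with a higher mean in pregnancy. Such a match is a description of these letters and not a site of binding.

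Libraries of the same group also differed from each other, in part along a shared order. The SD within a group was, at the median over the tested members, 12.3% of the mean without and 11.5% with pregnancy, against 11.2% and 6.21% over all tested genes. Non-pregnant library 2 was the highest of its group for 19 of the 36 members (52.8%; 32.7% of all tested genes), and pregnant library 3 for 20 (55.6%; 35.5% of all tested genes). Both held for 14 members (38.9%), against 13.1% of all tested genes. This count was made after the values had been seen. The 14 members were Cat, Gclc, Gclm, Gpx2, Gsr, Gss, Gsta3, Gstm5, Gstm6, Gstp1, Keap1, Prdx1, Prdx6 and Txn1, so they include all 4 genes of synthesis and recycling. Non-pregnant library 2 also carried the highest endothelial transcripts, at 273 FPKM summed, while pregnant library 3 carried 25.7 FPKM, and the part of these transcripts in the order was not tested. Between the lowest and the highest of the 6 libraries, 20 of the 36 members differed by less than 1.5-fold, with Keap1 (1.12-fold) and Nfe2l2 (1.16-fold) the most even. The members that differed by more than 2-fold were Gpx3, Hmox1, Gpx2, Gstm6 and Gstp1.

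**Figure D5:**
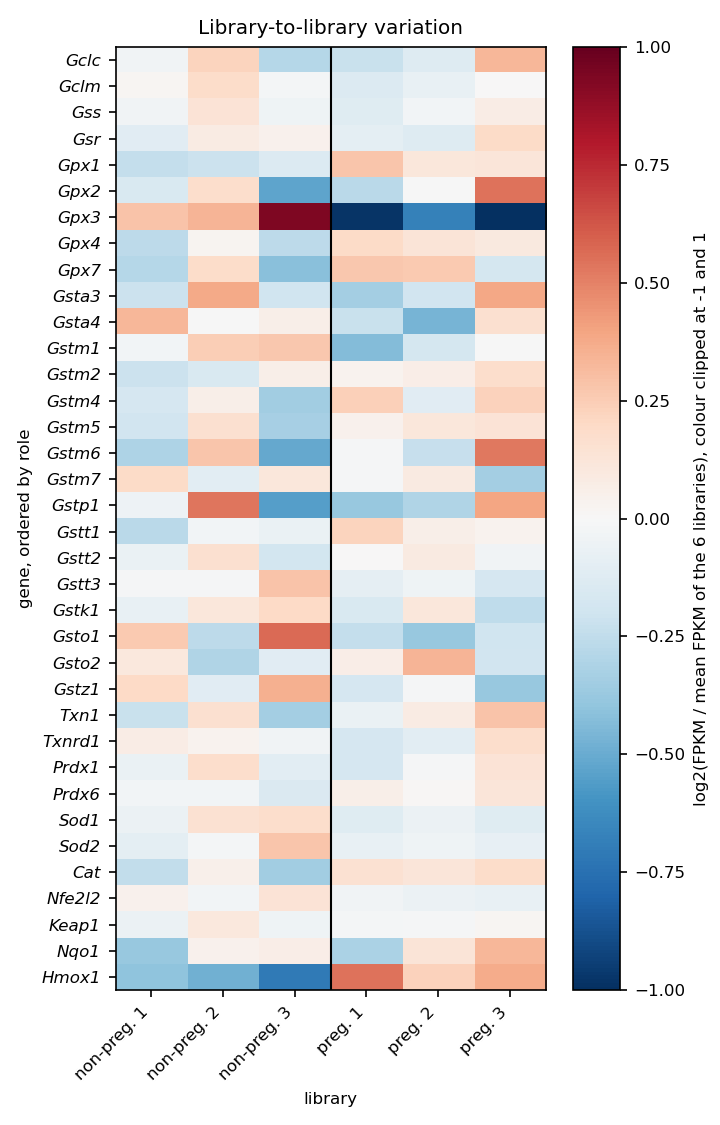
Level of each of the 36 tested genes (rows, ordered by role) in each of the 6 libraries (columns) as log2 of the FPKM over the mean FPKM of the 6 libraries, with the colour clipped at -1 and 1 and a black line that parts the non-pregnant from the pregnant libraries. Gpx3 and Hmox1 change colour at the line, while genes such as Gsta3, Gstp1 and Gclc are reddest, that is highest, in non-pregnant library 2 and pregnant library 3.

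Related genes outside the chosen set behaved alike in that none passed over all genes tested (limma). Among 18 other genes of peroxiredoxins, thioredoxin and superoxide dismutase, 4 were higher and 0 lower without overlap (Sod3, Msra, Prdx2 and Prdx5), with a median log2 change of 0.04. For these lists too, the shares over all tested genes were 9.9% higher and 12.2% lower without overlap, with 44.8% of log2 changes above 0. Sod3, the extracellular superoxide dismutase, stood at 16.7, 19.3 and 18.8 FPKM against 30.8, 26.2 and 24.0 FPKM (a log2 change of 0.53 with an SE of 0.107; limma adjusted p = 0.226). Msra, which repairs oxidised methionine, stood at 4.10, 4.62 and 4.05 against 5.34, 5.02 and 5.49 FPKM. Among 13 tested genes of other glutathione enzymes 1 was higher and 2 lower without overlap, with Mgst3, a microsomal transferase, at 12.4, 16.3 and 15.7 against 18.3, 17.5 and 18.4 FPKM. Glrx, a glutaredoxin, stood at 2.26, 2.08 and 2.38 against 2.02, 1.94 and 1.78 FPKM.

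Among 16 tested genes of the glutathione cycle, which cover its breakdown and the supply of cysteine, 11 had a log2 change below 0, at a median of -0.10. Ggct, which acts on gamma-glutamyl dipeptides, stood at 3.52, 3.54 and 3.37 FPKM against 2.74, 3.10 and 2.92 FPKM, and Ahcy, which splits S-adenosylhomocysteine, at 10.7, 9.43 and 19.1 against 8.14, 8.64 and 8.99 FPKM. Of 23 tested other NRF2 targets 0 were higher and 2 lower without overlap, at a median of 0.05. Slc48a1, a heme transporter and 1 of these 2, stood at 42.2, 45.1 and 45.7 against 36.3, 38.8 and 40.9 FPKM. Taldo1, of the pentose phosphate pathway, had a higher mean in pregnancy, at 28.6, 39.1 and 27.1 against 37.5, 37.0 and 40.1 FPKM, and its groups overlapped. Of 14 partners and regulators of NRF2, 1 was higher without overlap, the kinase gene Gsk3b, at 29.3, 27.4 and 28.8 against 31.5, 31.1 and 32.0 FPKM. Bach1, a repressor of Hmox1, stood at 11.3, 8.82 and 11.05 against 8.52, 8.74 and 9.35 FPKM. Of 14 tested genes of selenium supply and other selenoproteins 1 was lower without overlap, Selenop, the plasma carrier of selenium, at 268, 386 and 336 against 239, 254 and 206 FPKM (a log2 change of -0.49 with an SE of 0.152; limma adjusted p = 0.301). Selenos, a selenoprotein of the endoplasmic reticulum, stood at 23.5, 18.9 and 28.2 against 20.8, 19.5 and 17.8 FPKM. Selenop is made mainly by hepatocytes, whose markers were lower in the same libraries as given above, and their part was not tested.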

How the data were processed

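The authors deposited FPKM values, 1 column per sample. Named in the submitters' processing notes, with no roles, are DESeq2 1.30.1, HTSeq 0.13.5, STAR 2.7.9a, cutadapt 3.4 and the build mm10. Per the labels' protocols, ribosomal RNA was depleted (RiboErase) and KAPA HyperPrep libraries were made from sorted cells. Each FPKM times its GENCODE vM21 exon length was a whole multiple of 1 step per library (tolerance 0.01) for 98.5% of values above 0, which gave fragments. The implied library totals lay within 0.182% of totals made from median-of-ratios size factors, so the deposited values already carry such a scaling. Whether counting used strand is not given in the sources used here.

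Groups and replicate numbers came from the sample titles. Values were tested as log2(FPKM + 1), which understates changes of low genes, with limma 3.58.1 in R 4.3.3 (two-sided, empirical Bayes with a trend), for the 11412 genes whose mean reached 1 FPKM, with Benjamini-Hochberg adjustment over all of them. Fitted changes are given for the 14 tested members of smallest p and levels for the others; of each related list up to 2 genes of smallest p are named. The fit was tested on simulated data, where unchanged genes made up somewhat more of the calls than the threshold allows for. The members and lists were chosen with earlier results of these data known. Python 3.11.15 with pandas 2.3.3 handled the tables and matplotlib 3.10.9 drew the plots. Uniqueness was counted over stretches of 75 bases in GENCODE vM21 transcripts, a length chosen here because the read length is not given in the sources used here.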

Additional observations from a re-analysis of the deposited data

How the results depend on the processing

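In 14 of 15 alternatives, among them other pseudocounts, filters and scalings, no member passed the threshold; without non-pregnant library 2, 3 did. The 14 members with fitted values kept their direction in every alternative in which they were tested. This says little, because they were chosen for the smallest p in the same data and many alternatives use the same 6 libraries. The number of all genes called was 10 and became 0 with no filter on low values (2258 genes at an unadjusted p under 0.05), 4 with a mean of at least 5 FPKM, 5 with robust empirical Bayes and 1 with limma-voom on the recovered fragments. Leaving out single libraries gave 0 to 133 genes called and 0 to 3 members called: 133 genes without non-pregnant library 2, 12 without pregnant library 3 and 0 without any of the others (857 to 1419 genes at an unadjusted p under 0.05). The median log2 change of the tested members then ran from -0.054 to 0.095. It was positive without non-pregnant library 2 (0.095), pregnant library 1 (0.063) or pregnant library 2 (0.026), and also with no filter (0.026) and with quantile normalisation (0.014), so its sign is not settled. Scaling to the summed fragments of each library, chosen after seeing the data, gave 11 genes and 0 members. A replicate block gave 13 genes, all higher, and 0 members, with Gpx3 and Hmox1 both at an adjusted p of 0.131. Libraries with the same number did not deviate together (correlations of 0.07, 0.02 and -0.14 over 11412 genes), so the numbers were not taken as pairs. These are the numbers of the titles, while the sample description of non-pregnant library 3 has the number 4. No library correlated best with the library of its own number. For Gpx3 the log2 change ran from -1.44 to -0.95 over the alternatives (limma adjusted p from 0.0351 to 0.42), and for Hmox1 from 0.64 to 0.91 (0.0402 to 0.424). With a mean of at least 5 FPKM neither gene was tested. Why leaving out non-pregnant library 2 raised the number of calls was not tested. For members below the limit for testing, counting error limits what can be seen.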

Other observations

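Txnip, which encodes the inhibitor of thioredoxin and is named because of its values, had the highest level of the related genes of peroxiredoxins, thioredoxin and superoxide dismutase. It stood at 603, 402 and 1314 FPKM in the non-pregnant and at 363, 430 and 241 FPKM in the pregnant libraries. Non-pregnant library 2 fell inside the pregnant range, and the log2 change of -1.03 ± 0.412 (SE) did not pass (limma adjusted p = 0.357). Cftr, the chloride channel of the apical membrane of bile duct cells, also chosen after its values were seen, stood at 6.07, 6.18 and 3.87 FPKM against 8.12, 9.99 and 8.70 FPKM. Of 19 tested biliary markers 9 were higher in all pregnant libraries and 0 lower (9.9% and 12.2% of all tested genes), and none passed over all genes tested (limma), so the members that were higher, such as Gpx1 and Cat, were so in libraries whose biliary markers were also higher. The part of this difference in the members' values was not tested.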
